A study of Mus musculus with 61 samples.

Results

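The 200 genes described here are the maternal RNAs whose level was lowest in wild-type (WT) zygotes relative to WT fully grown oocytes. Genes with a mean of at least 50 in germinal vesicle (GV) oocytes, the stage before meiotic maturation, were ranked by the log2 ratio of the mean + 1 in GV oocytes to the mean + 1 in zygotes. The first 200 of 4145 ranked genes were taken, out of 18396 genes measured. Because WT GV and WT zygote values chose the members, their difference between those groups is a description without a test. On means + 1, the median member was 11.5-fold higher in WT GV oocytes than in WT zygotes, with a range from 7.62-fold for Cdpf1 to 62.6-fold for Upp1. The last genes inside the list, Lsm4, Tubb2a and Cdpf1, had log2 ratios of 2.94, 2.94 and 2.93, and the first outside, Dpcd, Prkaa1 and Napa, had 2.93, 2.93 and 2.91.

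The growing mammalian oocyte stores RNA for the period in which its own genome is silent. From meiotic maturation onwards stored transcripts are translated or destroyed in waves, with shortening of the poly(A) tail as an early step of decay, and in the mouse the embryonic genome takes over mainly at the 2-cell stage. U-rich cytoplasmic polyadenylation elements (CPEs) near the 3′ end are known to let some stored RNAs lengthen their tails during maturation.

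The study examined ZFP708, a KRAB zinc-finger protein present in oocytes that binds the co-repressor TRIM28. Single GV oocytes, and single zygotes and 2-cell embryos and pools of 10 blastocysts from natural matings, were sequenced from WT females and as ZFP708 maternal nulls (KO), that is from knockout females, mated with WT males for the embryos. There were 7 libraries of each genotype as GV oocytes and as zygotes, 7 WT and 8 KO libraries at the 2-cell stage, and 3 of each genotype as blastocysts. Mouse embryonic stem cells (mESCs) were WT or lacked both maternal and zygotic ZFP708 (3 libraries each), and E14 mESCs with or without FLAG-tagged ZFP708 overexpression (3 each) were used only for levels. The knockout allele is a short frameshift deletion made with CRISPR/Cas9, so that the RNA does not check the genotype: the Zfp708 level was 44.2 to 122 in WT and 72.6 to 122 in KO GV oocytes, and 73.4 to 202 in WT and 146 to 303 in KO zygotes. No agent is named for the oocytes and embryos. The paper derived its mESC lines from blastocysts in 2i medium on feeder cells, and selected cells transfected with ZFP708 vectors with puromycin. The number of mothers behind the single oocytes and embryos is not given in the sources used here, so p-values measure only the spread between these libraries.

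Levels are read counts divided by a size factor per library, and 1 read was worth 0.208 to 0.397 in the single-oocyte and single-embryo libraries. Reads in genes numbered 2486334 to 4844699 in those libraries, 12469548 to 17263228 in blastocysts and 15272758 to 19596785 in WT and KO mESCs. The oocyte marker list summed to 22279 to 31247 in GV oocytes and to 17260 to 27989 in zygotes, which overlap, while Zp1, another egg coat gene, ran from 904 to 1973 in GV oocytes, from 190 to 356 in zygotes and from 11.6 to 73.7 in 2-cell embryos. Cdx2, a trophectoderm factor, ran from 166 to 237 in blastocysts and was at most 1.30 in the earlier stages. The KO 2-cell libraries stood apart in follicle-cell RNA: the 20 cumulus and granulosa markers summed to 230 to 11485 there and to 164 to 241 in WT 2-cell embryos, and Cyp11a1, a steroid-producing enzyme of follicle cells, was 11.2 to 4540 in KO and at most 0.321 in WT. In GV oocytes the same list summed to 74.9 to 144 in WT and 87.5 to 104 in KO, and in zygotes to 91.9 to 109 and 91.5 to 124. KO 2-cell library 7 also held little embryo RNA. Its 2-cell activation markers, Zscan4d among them, summed to 0, against 22.1 to 673 in the other KO and 19.5 to 432 in the WT libraries. Its oocyte list summed to 193, against 725 to 6050 and 1326 to 3995. It was kept in the 2-cell comparisons unless stated. As values are relative to the other RNAs of a library and the cDNA was primed on poly(A), loss of an RNA and shortening of its tail cannot be told apart.

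The 3′ ends of members were short and mostly lacked CPEs, and 4 are shown because the text returns to their length and motifs. Each is the last 30 bases of the longest annotated transcript in the 3′ untranslated region (3′UTR), 5′ to 3′ on the strand of the gene in NCBIM37, with the polyadenylation signal AATAAA and the CPE TTTTAT in capitals. Upp1 (3′UTR of 64 bases), Psmb7 (141, with overlapping signals), Ckb (208) and Zp2 (173) are members. Ccnl1 (1786) and Efna1 (756) are low-ranked genes (ranks 4111 and 4138) with both motifs in this window, from a choice that left out 1 chromosome. Their log2 change from KO GV oocytes to KO zygotes was 1.01 and -0.17.
Upp1, chr11:9036138-9036167, plus strand: aactcctgggcAATAAAtctattttttcat
Psmb7, chr2:38443556-38443585, minus strand: aAATAAATAAATAAAaagacaaaaaactta
Ckb, chr12:112907566-112907595, minus strand: taaactagggtttggcctgccctatttctg
Zp2, chr7:127270286-127270315, minus strand: tctttaaactctAATAAAattatcctctgg
Ccnl1, chr3:65750073-65750102, minus strand: gaAATAAAatacaaatcttgtTTTTATaaa
Efna1, chr3:89075658-89075687, minus strand: gattcatAATAAAttgatggttTTTTATgg

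By function, assigned after the members were known, the list was led by the machinery that makes proteins and respires. It held 25 cytosolic ribosomal proteins, 22 subunits of oxidative phosphorylation, 20 genes of mitochondrial import, assembly and metabolism, 17 of RNA processing, 12 of membrane traffic, 8 mitochondrial ribosomal proteins and 6 translation factors. Smaller groups were 5 genes of DNA replication and repair, 5 of the cytoskeleton, 3 of the cell cycle, 3 proteasome subunits and 3 of the zona pellucida and gamete fusion, and 71 had other roles. All but the pseudogene Speer5-ps1 were protein coding. Member means in WT GV oocytes ran from 50.4 for Rit1 to 3413 for Zp3, with a median of 111, and the median over members in WT zygotes was 8.17.

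**Figure D1:**
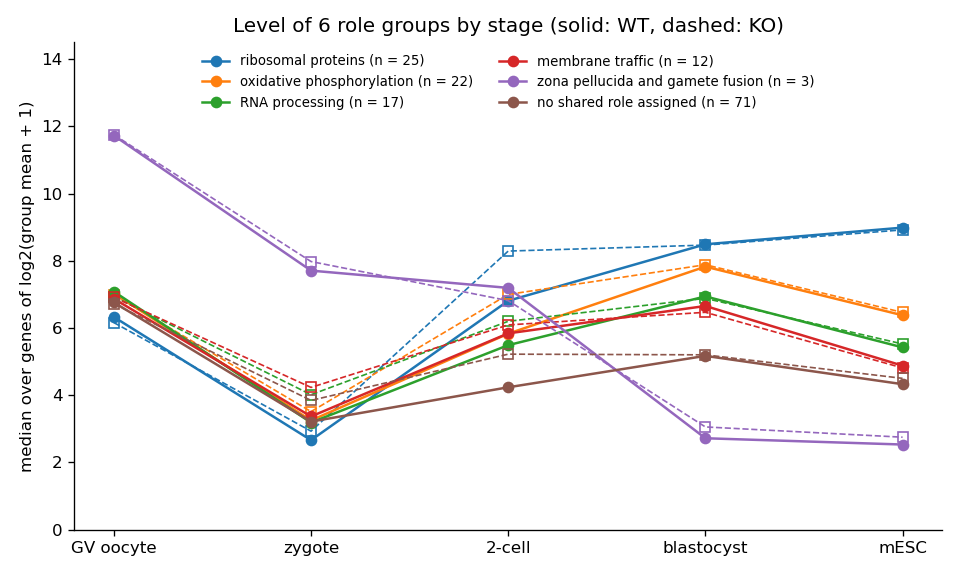
Median over genes of log2(group mean + 1) for 6 of the function groups (colors) at each stage, with solid lines for WT and dashed lines for KO libraries. Before the log the 25 ribosomal protein members had a median level of 79.3 in WT GV oocytes, 5.32 in WT zygotes and 111 in WT 2-cell embryos, and the 3 zona and gamete fusion members had 3392, 208 and 145.

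Every member fell between KO GV oocytes and KO zygotes, a comparison of libraries that did not choose the list. In the limma test across 11550 genes with Benjamini-Hochberg adjustment, 200 of 200 members were lower in KO zygotes at an adjusted p under 0.05, where 32.5% of all genes tested were called lower and 31.9% higher, 64.4% in all. The median log2 difference was -3.02 for the members and 0.02 for all genes tested. The lowest KO GV library lay above the highest KO zygote library for 199 members, the exception being the aldo-keto reductase Akr1b8 (lowest 11.6 in KO GV oocytes, highest 13.9 in KO zygotes), and for 28% of the 4145 ranked genes. The fold between KO means + 1 ran from 2.10 for Car9 to 76.1 for Upp1, with a median of 7.86.

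**Figure D2:**
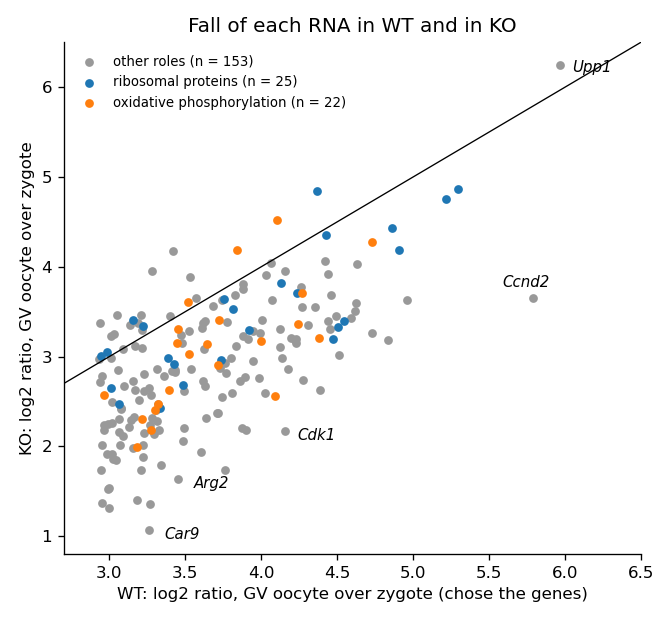
Log2 ratio of GV to zygote means (+ 1) in WT libraries (horizontal) against the same ratio in KO libraries (vertical), 1 point per member, colored by function, with the line of equal ratios. The median ratio was 3.53 in WT and 2.97 in KO over the members, and -0.18 in WT and -0.16 in KO over all 4145 ranked genes. The KO ratio of a member was smaller than its WT ratio in 177 of 200, on an axis where WT values chose the members.

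Upp1 and Ccnd2 headed the ranking. Upp1 (chr11:9018106-9036173), uridine phosphorylase of pyrimidine salvage, had a lowest, median and highest level of 295, 412 and 440 in WT GV oocytes and of 2.91, 3.99 and 10.6 in WT zygotes. In KO libraries the same values were 298, 374 and 411 in GV oocytes and 1.11, 4.01 and 6.75 in zygotes, so that no zygote came near any oocyte (log2 difference in KO -6.36, SE 0.21, adjusted p = 1.56e-16, limma). Upp1 did not remain low, and read 165, 262 and 345 in the WT blastocyst libraries. Ccnd2 (chr6:127075797-127101066), the D-type cyclin of G1 progression, was 24.5, 59.1 and 117 in WT GV oocytes and had no more than 1.43 in any WT zygote, where 7 reads were counted over the 7 libraries.

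The ribosomal protein members showed a fall followed by a return at the 2-cell stage. Rpsa (chr9:120036884-120041487), a small-subunit protein also known as a laminin receptor, had a lowest, median and highest level of 64.3, 79.5 and 99.2 in WT GV oocytes and of 0.390, 2.41 and 5.58 in WT zygotes. KO libraries gave 56.4, 61.1 and 67.7 in GV oocytes and 0, 1.30 and 2.89 in zygotes, with no overlap between stages in either genotype (log2 difference in KO -5.00, SE 0.26, adjusted p = 8.69e-14, limma). At the 2-cell stage Rpsa ran from 112 to 215 in WT and from 110 to 919 in KO, above every oocyte and zygote. Of 83 cytosolic ribosomal protein genes measured, 57 were ranked and 25 were members, and the 57 had a median log2 ratio of 2.71 in WT and 2.47 in KO. In the KO libraries 53 of the 57 were lower in zygotes than in GV oocytes and 3 were higher. Ribosomal protein genes share sequence with processed pseudogenes, so single values of this family are uncertain.

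Subunits of the respiratory chain made the next largest group. Ndufa9 (chr6:126771881-126799162), a subunit of complex I, had a lowest, median and highest level of 131, 162 and 257 in WT GV oocytes and 4.11, 5.07 and 9.75 in WT zygotes. KO libraries gave 157, 172 and 183 and then 5.57, 7.83 and 11.5, again without overlap between stages (log2 difference in KO -4.31, SE 0.15, adjusted p = 1.59e-16, limma). Members came from complex I (Ndufb7, Ndufa7, Ndufs7, Ndufv1), complex II (Sdhb), complex III (Uqcr11, Uqcrq), complex IV (Cox4i1, Cox7b, Cox7c) and the ATP synthase (Atp5o, Atp5g1, Atp5h). Of 57 ranked oxidative phosphorylation genes 22 were members, and in KO libraries 49 of the 57 were lower in zygotes and 4 higher. The mitochondrial ribosomal proteins had 8 members among 41 ranked and a median log2 ratio of 1.65 in WT, and the proteasome had 3 members (Psmb7, Psmb4 and Psmb1, subunits of the 20S core) among 35 ranked with a median of 1.01.

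Genes known for oocyte functions included the most abundant members. The zona and gamete fusion list had 3 members among 12 ranked genes (25%), where 4.83% of all ranked genes were members. Zp3 (chr5:136455969-136464494) and Zp2 (chr7:127270286-127288804), glycoproteins of the egg coat, had the highest means of the list. Zp3 ran from 2760 to 4213 in WT GV oocytes (median 3309) and from 136 to 278 in WT zygotes (median 212), and Zp2 from 2203 to 5863 (median 3247) and from 314 to 575 (median 414). KO libraries ran for Zp3 from 3057 to 4544 and from 169 to 319, and for Zp2 from 2241 to 4512 and from 261 to 505, so that the genotypes overlapped at both stages. Cd9, a tetraspanin of the egg membrane needed for sperm fusion, went from 114 to 316 in WT GV oocytes to 5.32 to 22.8 in WT zygotes. Khdc3, a component of the subcortical maternal complex, was the only member among 16 ranked genes of that list (6.25%). It ran from 382 to 557 in WT GV oocytes and from 26.2 to 34.0 in WT zygotes. Fgf8, a growth factor secreted by oocytes that acts on cumulus cells, ran from 169 to 277 and from 8.24 to 28.2. It was the only member among 8 ranked genes of its list (12.5%). Trim71, an RNA-binding ubiquitin ligase, was the only member of 28 ranked mRNA decay genes (3.57%).

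Several fixed lists of genes active in the oocyte had no member, where 4.83% of all ranked genes were members. By that share, lists of the lengths given here would hold few or none. None of 29 ranked maternal chromatin genes, 20 mRNA storage genes, 12 oocyte transcription factors, 30 secretory and endoplasmic reticulum genes or 54 genes with a numbered Zfp symbol was in the list. That symbol leaves out other zinc-finger genes, of which Zfpl1 was a member. The other lists are not complete either: Suv39h1 and Kat8, which code for histone-modifying enzymes, were members, and 12 members had roles in membrane traffic. The ranked Zfp genes had a median log2 ratio of -0.24 in WT. Of 31 ranked meiotic genes 6.45% were members: Cdk1, the kinase of entry into M phase, and Mapk3, a kinase of the meiotic arrest pathway.

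Members were close to the WT level in KO GV oocytes. In 200 members tested, 1 was higher and 3 were lower in KO than in WT, where 3.64% of 11775 genes were called (1.44% higher and 2.2% lower), and 34 members had an unadjusted p under 0.05, against 22.6% of all genes tested (limma). The median log2 difference was -0.09, in a comparison whose WT values had to be high for a gene to enter the list. The summed level of the members was 41601 ± 4988 in WT and 41493 ± 1187 in KO (SD, n = 7 each), and the groups overlapped.

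The 4 exceptions in GV oocytes were single genes of unlike function. Ckb (chr12:112907566-112910549), brain-type creatine kinase, had a range of 224 to 311 and a median of 285 in WT, and of 319 to 418 and 380 in KO, so that the groups did not overlap (log2 difference 0.48, SE 0.10, adjusted p = 0.0129, limma). Ccnd2 had a range of 24.5 to 117 and a median of 59.1 in WT, and of 9.36 to 25.3 and 13.8 in KO, so that the lowest WT library lay below the highest KO library (log2 difference -1.99, SE 0.29, adjusted p = 0.00309, limma). In 2-cell embryos Ccnd2 was 354 and 772 in KO libraries 2 and 7, which had the most follicle-cell RNA. It was 7.71 to 88.3 in the other KO 2-cell libraries. The part of follicle-cell RNA in the GV level of Ccnd2 was not tested. The serine protease Prss12 ran from 49.5 to 86.5 in WT and from 33.9 to 46.8 in KO without overlap, and fell by 0.63 on the log2 scale (SE 0.13). Fam229b ran from 47.6 to 121 and from 33.1 to 56.3, overlapping between genotypes, with a log2 difference of -0.65 (SE 0.16, adjusted p = 0.0314, limma), and this call was lost under 10 alternatives.

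In zygotes many members were higher in KO than in WT. Of 199 members tested 83 were higher and 1 lower, where 8.19% of 11168 genes were called higher and 6.38% lower (14.6% in all), and the median log2 difference was 0.65 (limma). The 2 groups did not overlap for 42 members, with every KO library the higher, against 5.19% of ranked genes, and 52 members had a KO mean + 1 at least 2 times that of WT, against 3.31%. Low WT zygote values had chosen the members, so this direction is in part fixed by the rule and is given with the list chosen the same way from the KO libraries. In that list 39 of 200 were higher and 21 lower, with a median of 0.24, and over all ranked genes 603 were higher and 353 lower of 4144, with a median of 0.06. The 133 genes found in both lists held 38 higher and 1 lower (median 0.48), the 67 genes in the WT list only 45 higher and 0 lower of 66 tested, and the 67 in the KO list only 1 higher and 20 lower.

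The summed level turned its direction with the list. Over the members the sum was 3455 ± 269 in WT zygotes and 5834 ± 1023 in KO zygotes (SD, n = 7 each), with no overlap (3023 to 3861 and 4354 to 7351). Over the list chosen from KO libraries it was 6946 ± 482 in WT and 5391 ± 607 in KO, again without overlap. Other marker lists also moved between the zygote groups: the oocyte list (12 genes, 2 of them members) summed to 24171 to 27989 in WT and 17260 to 22286 in KO, and the blood list, of which 7 of 8 genes were measured, to 0 to 1.59 in WT and 0 to 411 in KO with a KO median of 0.974. Gdf9, an oocyte growth factor, was 5344 to 6622 in WT and 1609 to 4278 in KO zygotes. Their part in the difference of the members was not tested.

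**Figure D3:**
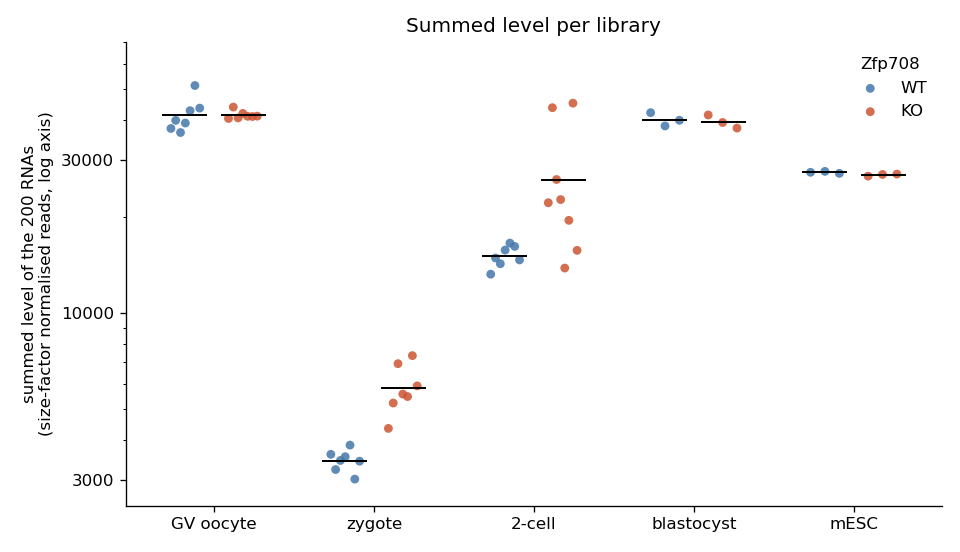
Summed level of the 200 members in each library (points), by stage and genotype, on a log axis in size-factor-normalized reads, with a line at each group mean. The sums ran from 36598 to 51332 in WT GV oocytes, from 3023 to 3861 in WT zygotes, from 13208 to 16521 in WT 2-cell embryos and from 13804 to 45212 in KO 2-cell embryos.

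The differences between zygotes with the smallest p were led by Arg2 and Car9. Their p-values use the low WT zygote values that chose the members, so they are in part fixed by the rule. No gene named in this paragraph was in the list chosen from KO libraries. Arg2 (chr12:80231764-80257288), the mitochondrial arginase, had a range of 45.3 to 81.1 and a median of 54.4 in WT zygotes, and of 164 to 343 and 213 in KO zygotes, without overlap, while GV oocytes overlapped at 445 to 795 and 655 to 813 (log2 difference in zygotes 1.96, SE 0.16, adjusted p = 1.30e-08, limma). Car9 (chr4:43519838-43526601), a membrane carbonic anhydrase, ran from 9.64 to 21.5 in WT and from 50.8 to 163 in KO zygotes (log2 difference 2.51, SE 0.22, adjusted p = 4.56e-08, limma). In GV oocytes Car9 was 124 to 208 in WT and 202 to 235 in KO, overlapping at the edge, with an adjusted p of 0.0532 in limma. Cdk1 ran from 5.05 to 18.1 in WT zygotes and from 32.2 to 67.8 in KO zygotes (log2 difference 1.94, SE 0.23). Zfpl1, a Golgi zinc-finger protein, Nubp2, which assembles iron-sulfur clusters, Ninj2, a cell-surface protein, and Jpt1 were higher by 1.96, 1.81, 1.57 and 1.59 on the log2 scale, each with groups apart. Tubb4b, a beta-tubulin, ran from 117 to 214 in WT and from 268 to 608 in KO.

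The members higher in KO zygotes were spread over most functions, and differences between functions were not tested. The WT zygote values that chose the members enter each count below, and 8.19% of all genes tested were called higher. The count was 10 of 20 for mitochondrial import, assembly and metabolism (among them Chchd2, Timm17a and Tomm40), 7 of 12 for membrane traffic, including the SNARE Vamp8, 7 of 22 for oxidative phosphorylation and 6 of 17 for RNA processing. It was 5 of 25 for cytosolic ribosomal proteins, among them Rpl19, Rps15 and Rpl7a, and 0 of 5 for DNA replication and repair. Over all 57 ranked ribosomal protein genes the median difference was -0.02, with 6 higher and 9 lower. Over all 57 ranked oxidative phosphorylation genes it was 0.17, with 12 higher and 5 lower.

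**Figure D4:**
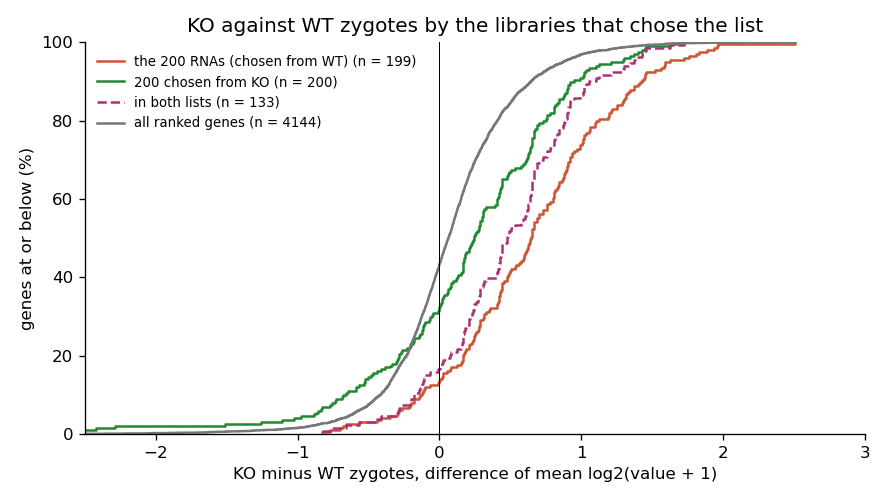
Cumulative share of genes (vertical, percent) at or below each log2 difference between KO and WT zygotes (horizontal, cut off below -2.5), for the members, the list chosen from KO libraries, the 133 genes in both and all ranked genes. The median was 0.65 in the members, 0.48 in both lists, 0.24 in the list chosen from KO libraries and 0.06 over all ranked genes.

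The change from GV oocyte to zygote was tested between genotypes directly. In the interaction term of limma 81 members had a smaller and 1 a larger fall in KO than in WT, where 3.84% and 2.97% of 12411 genes were called (6.8% in all), and the median was 0.74 in a term that uses the WT values that chose the list. The list chosen from KO libraries gave 35 and 15. Among the differences with the smallest p were Arg2 (1.78), Nubp2 (1.69), Zfpl1 (1.76), Vamp8 (1.66), Car9 (2.10) and Cdk1 (2.00).

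The members parted at the 2-cell stage, where the embryo's own genome is active. Between KO zygotes and KO 2-cell embryos 130 members rose and 27 fell of 200 (limma), where 33.1% of 12395 genes were called in each direction (66.2% in all), and the median was 2.18. All 25 ribosomal protein members rose, with a median of 4.90, as did 21 of 22 oxidative phosphorylation members with a median of 3.06, and all 6 translation factors and 3 proteasome subunits. Without KO libraries 2 and 7, which had the most follicle-cell RNA, the counts were 128 and 31. The ribosomal protein members summed to 18670 and 17630 in those 2 libraries and to 2547 to 7650 in the other KO 2-cell libraries. The medians of the rise above include all KO 2-cell libraries. In WT the 2-cell mean was above the zygote mean for 163 members, and the groups did not overlap for 127 members, against 31.3% and 15% of ranked genes, in a comparison with the WT zygote values that chose the list.

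The rises with the smallest p included Rpsa, Nhp2, a component of box H/ACA particles, and Mdh2, the mitochondrial malate dehydrogenase. Rpsa rose from KO zygotes to KO 2-cell embryos by a log2 difference of 7.28 (SE 0.44, adjusted p = 2.14e-10, limma). Its level was 781 and 919 in KO 2-cell libraries 2 and 7, and 110 to 351 in the other KO 2-cell libraries. Nhp2 ran from 2.78 to 13.0 in KO zygotes and from 202 to 430 in KO 2-cell embryos (log2 difference 5.06, SE 0.27, adjusted p = 4.65e-11). Mdh2 ran from 7.94 to 20.8 in KO zygotes and from 285 to 684 in KO 2-cell embryos (log2 difference 4.83, SE 0.23). Cdk1 and Jpt1 had the highest WT 2-cell means of the members, at 441 and 431.

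The falling members included the egg coat genes and Fgf8. Fgf8 ran from 12.03 to 34.3 in KO zygotes and from 0 to 3.86 in KO 2-cell embryos, and fell by 3.59 on the log2 scale (SE 0.37, adjusted p = 1.56e-07, limma). Ninj2, Cpsf4l, Lrrc36 and E330017A01Rik fell by 4.30, 3.46, 3.36 and 3.23, and Setd4 by 2.22. Zp2, Zp3, Car9, Arg2 and Khdc3 were also among those that fell.

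No member passed the test between KO and WT 2-cell embryos. In limma 0 of 197 tested were called, where 0.708% of 12578 genes were (0.7% higher and 0.00795% lower), and 71 members had an unadjusted p under 0.05 against 14.9% of all genes, with a median log2 difference of 0.52. On the recovered read counts edgeR called 15 members and DESeq2 58, where 2.08% and 7.29% of all genes were called. The KO sums ran to 43764 and 45212 in libraries 2 and 7, the 2 libraries with the most follicle-cell RNA, and the part of that RNA in the difference was not tested. Without them limma called 1 member and the median was 0.29, while Cyp11a1 was still 11.2 to 428 in the KO libraries kept. With each library left out in turn the count ran from 0 to 9, and it was 9 without KO library 5, 1 without KO library 7 and 5 without KO library 8.

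The share of members that reached their WT GV level was below that of ranked genes in WT 2-cell embryos. It was above that of ranked genes in WT blastocysts and near it in WT mESCs. The WT GV values used as the reference also helped choose the members. The mESC libraries came from another kit, so these levels are only set side by side. The WT 2-cell mean was at least 10% of the WT GV mean for 160 members (80%) and at least 100% for 36 (18%), against 91.6% and 30.8% of ranked genes. In blastocysts these counts were 165 (82.5%) and 107 (53.5%), against 78.3% and 29.8%. In mESCs they were 157 (78.5%) and 57 (28.5%), against 78.2% and 25.5%. Ckb was the highest member in blastocysts, at 1780, 1678 and 1804 in the 3 WT libraries, and Khdc3 stood at 1678, 1473 and 1690. Khdc3 was only 7.69 to 18.7 in WT 2-cell embryos and 5.95, 26.5 and 7.91 in WT mESCs. In mESCs the highest members were the ribosomal proteins Rpl8 (1333, 1299 and 1328 in WT) and Rps3.

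The WT GV mean, which also helped choose the members, was the reference for a last count. A set of 22 members (11%) stayed under 10% of it at all 3 later stages, as did 5.14% of ranked genes. It held Zp3, Zp2, Fgf8, Ninj2, Setd4, the F-box gene Fbxw13, the GTPase gene Rhoh, Car9, Cpsf4l and E330017A01Rik. Fgf8 was listed at 0 in all 3 WT and all 3 KO blastocyst libraries.

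In blastocysts and mESCs the genotypes differed in few members. In blastocysts limma called 0 of 185 members, where 0.00885% of 11295 genes were called, and 1 member had an unadjusted p under 0.05 against 1.53% of all genes. The summed level was 38374 to 42222 in WT and 37789 to 41527 in KO. In mESCs 11 members were higher and 8 lower in KO of 183 tested, where 13.9% of 11963 genes were called in either direction (8.26% higher and 5.6% lower), and the median was 0.01.

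Among the mESC calls Ckb recurred in the direction seen in GV oocytes. It read 349, 367 and 338 in WT and 491, 532 and 496 in KO mESCs, without overlap (log2 difference 0.53, SE 0.05, adjusted p = 0.00411, limma). Tubb2a, a beta-tubulin, read 10.7, 14.9 and 9.94 in WT and 32.6, 23.9 and 21.6 in KO (log2 difference 1.07, SE 0.20). Mif, a cytokine, read 305, 265 and 315 in WT and 188, 174 and 189 in KO, and fell by 0.68 (SE 0.08), and Mapk3 fell by 0.58 (SE 0.10). The calls of Tubb2a and Mapk3 were lost under 6 and 5 alternatives, and those of Ckb and Mif under 1 each. The 19 mESC calls became 47 without WT library 2, 9 without KO library 1, 2 without KO library 2, 2 without KO library 3, 3 without WT library 1 and 5 without WT library 3. Some libraries were close to each other. The chi-square per degree of freedom between read counts was 1.72 for KO libraries 2 and 3, against 10.97 and 12.68 with KO library 1. It was 3.28 for WT libraries 1 and 3, against 34.8 and 35.0 with WT library 2. Whether these close pairs are separate lines was not tested.

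Members had shorter 3′UTRs than the other ranked genes. The median length was 243 bases (interquartile range 114 to 709) over 199 members with an annotated 3′UTR, against 1091 bases over 3890 other ranked genes, and the coding part was 732 against 1377 bases. Ribosomal protein members had a median of 49 bases and the rest 265.5 bases. With the shortest annotated 3′UTR of each gene the medians were 156 and 463.5 bases. Among all ranked genes the KO change from GV oocyte to zygote went with the length: the median log2 change was -1.62 for 3′UTRs of 1 to 100 bases, of which 25.7% were members, and 0.51 for those over 1600 bases, of which 1.63% were members.

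**Figure D5:**
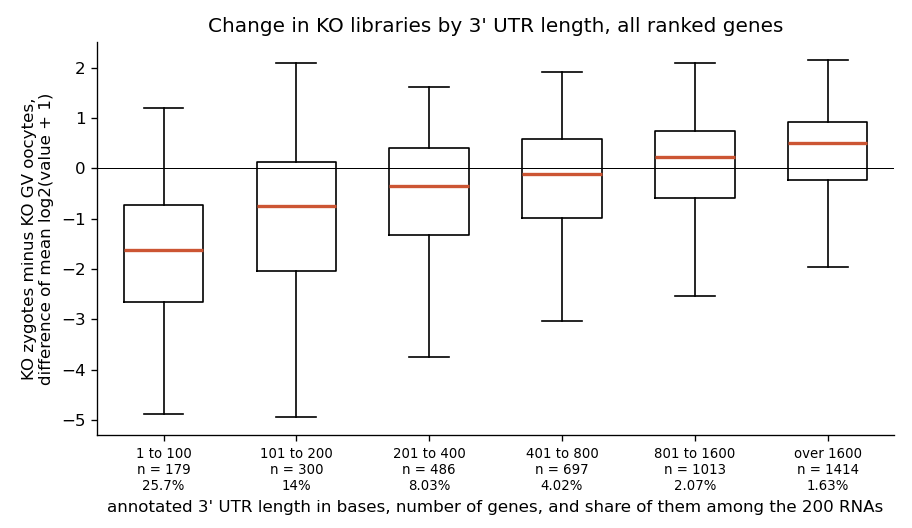
Boxes of the log2 change from KO GV oocyte to KO zygote (vertical) by class of 3′UTR length (horizontal) over the ranked genes, with the median as a line, quartiles as the box and whiskers to the farthest gene within 1.5 times the box height (genes beyond are not drawn). The median went from -1.62 in the class of 1 to 100 bases (179 genes) to 0.51 in the class over 1600 bases (1414 genes).

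CPEs were rare in the members. TTTTAT or TTTTAAT lay on the transcript strand within the last 100 bases of the 3′UTR in 12 members (6.03%) and in 23.2% of the other ranked genes. AATAAA lay within its last 40 bases in 43.7% and 63.1%. A 3′UTR shorter than these windows was searched over its own length only, and 46 members had one of 1 to 100 bases. The AU-rich pentamer ATTTA was in the 3′UTR of 31.2% and 73.5%, on lengths that differed as above. Within each length class genes with a CPE had a higher median KO change than those without: -0.95 and -1.79 for 1 to 100 bases, -0.02 and -1.06 in the next class up to 200 bases, and 0.61 and 0.47 for over 1600 bases. The members with a CPE included Trim71, Setd4, Rpl5 and Ppil3. These are motif matches across genes, which are not independent replicates, and no test was run on them.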

How the data were processed

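The authors aligned reads with STAR 2.4.2a to mm9, counted them per gene of the NCBIM37 Ensembl annotation with htseq-count on 1 strand, and deposited a signal: counts divided by DESeq2 size factors. The kit used for the single oocytes and embryos does not mark strand, so reads of overlapping genes on opposite strands cannot be told apart. The blastocyst kit is not given in the sources used here. Values were whole multiples of 1 read within 0.01 for 100% of entries, and the recovered reads were used in edgeR 4.0.16 and DESeq2 1.42.0 as alternatives.

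The main test was limma 3.58.1 (R 4.3.3, trend and robust) on log2(value + 1), so that changes of low genes are understated, on genes that reached 1 in a number of libraries no lower than the size of the smaller group, with Benjamini-Hochberg adjustment over all genes tested and a threshold of 0.05. All tests were two-sided and fitted on all genes, and the scripts were tested on simulated data. Members, gene lists and roles were chosen with earlier results of these data known. Genes named are the first 20 ranks, those at the edge of the list, those with the smallest p per comparison, members of the gene lists and those with the highest later levels. Transcript ends were read from the NCBIM37 genome and annotation. Of 18504 rows, 108 that repeated a gene identifier were dropped. Library numbers did not pair the samples: correlations of same-numbered libraries ran from -0.54 to 0.28, with the 2-cell KO libraries 7 and 8 carrying the same number in their titles. A few single-gene results are not reported here.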

Additional observations from a re-analysis of the deposited data

Results flagged for a closer look

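Chance marks about 1 in 20 groups in a search for distant libraries, and 18 were found in 108 groups of 4 to 10 libraries. WT GV library 6 lay above the others for the summed ribosomal protein members (4697, next 3207), Psmb7 (392), Cd9 (316), Trim71 (360) and Ninj2 (1145). KO GV library 2 lay above the others for the sum of all members (4.396e+04) and Trim71 (246). In WT zygotes the distant libraries were library 7 for Ccnd2 (1.43) and Ndufa9 (9.75) and library 5 for Trim71 (34.8). In KO zygotes library 1 lay below the others for Fgf8 (12.03). In 2-cell embryos WT library 7 stood apart for Fgf8 (5.75) and Trim71 (148), WT library 5 for Car9 (12.1), KO library 6 for Zp2 (249), Arg2 (423) and Ninj2 (36.9) and KO library 7 for Ccnd2 (772). KO library 7 also had the most follicle-cell RNA, with a marker sum of 11485.

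The change from GV oocyte to zygote differed between genotypes by the interaction test for Arg2 (1.78), Nubp2 (1.69), Zfpl1 (1.76), Vamp8 (1.66), Car9 (2.10) and Cdk1 (2.00), on the log2 scale as KO minus WT. The WT values in that difference also chose the members, which moves it upward, and in the list chosen from KO libraries 35 genes had a smaller and 15 a larger fall in KO, against 81 and 1 here.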

How the results depend on the processing

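The fall of the members in KO libraries (200 of 200) and the zygote and interaction counts stayed within 1.5 times the reported value under the alternatives run, the zygote count running from 69 to 86 and the interaction count from 75 to 102. DESeq2 called 9 members between GV oocytes. Between 2-cell embryos quantile normalization called 1, DESeq2 58 and edgeR 15, and without KO libraries 2 and 7, a setting chosen after seeing the data, 1 was called. Between mESCs DESeq2 called 29, and 0 were called with the closest pairs of libraries averaged, also chosen after seeing the data. The replicate block gave 3 members in GV oocytes, 78 in zygotes, 4 at the 2-cell stage, 10 in mESCs, 86 in the interaction, 159 from KO zygote to KO 2-cell embryo and 200 in the KO fall, but the libraries share only a number. With each library left out, counts ran from 200 to 200 for the KO fall, 3 to 6 in GV oocytes, 75 to 91 in zygotes, 0 to 9 at the 2-cell stage, 0 to 0 in blastocysts, 2 to 47 in mESCs and 151 to 163 for the KO rise. The list shared 110 genes with one from a mean of at least 100, 133 with one from KO libraries, 183 with a pseudocount of 5, 186 with medians and 193 without WT GV library 6 (chosen after seeing the data). With the list from KO libraries the median difference was -0.0085 in GV oocytes and 0.24 in zygotes. Quantile normalization moved the median of all genes from 0.02 to 0.20 for the KO fall and from -0.06 to -0.22 for the KO rise. Of 1335 checks of single genes and of the 3′UTR length 1267 kept direction and side of the threshold, 67 lost the call, 1 moved (the median 3′UTR length, to 156 bases with the shortest annotated 3′UTR, chosen after seeing the data) and 0 reversed. The cause of these changes was not tested. Depth limits low genes, as 1 read was worth up to 0.397 in single-embryo libraries.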

Other observations

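Members were also present in E14 mESCs, which no comparison above used. Their summed level was 29777 to 30019 in control E14 cells and 30815 to 32275 in E14 cells overexpressing FLAG-tagged ZFP708, while Zfp708 itself was 6.35 to 7.03 and 530 to 722. Chromosome 11 held 21 members, chromosome 5 held 18 and chromosome 17 held 17. The shares of all ranked genes on these chromosomes were not set beside the counts, so no clustering can be read from them.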
